A study of Homo sapiens with 3 samples.

Results

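The genes of the cytosolic ribosomal proteins were followed in 3 poly-A RNA libraries of an established human bile duct cancer line. Members were the gene IDs on main chromosomes whose symbol is RPL, RPS or RPLP followed by a number, with or without a final A or X, or RPSA, and that reached 1 FPKM (fragments per kilobase of transcript, scaled to the mapped fragments of the library) in at least 1 library. Of 56488 gene IDs on main chromosomes, 79 matched and 78 reached that level. They stand for 77 genes, 46 of the large and 31 of the small subunit, since RPL36A had a second gene ID. The symbol rule leaves out some further components, of which FAU and GNB2L1 are described with the companion genes. Values chose no member beyond the minimum of 1 FPKM. The lowest member kept was RPS15, at 215 FPKM in HG, and the gene ID left out was a second one for RPL26, at no more than 0.237 FPKM.

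KKU-213 is an intrahepatic cholangiocarcinoma line. NG is KKU-213 kept in DMEM with 5.6 mM glucose, HG is KKU-213 kept in DMEM with 25 mM glucose, and L5 is KKU-213L5, a derivative of KKU-213 known for its high metastatic capacity, kept in DMEM with 25 mM glucose. All 3 cultures had fetal bovine serum and antibiotics, and the labels put each past 5 passages. HG against NG therefore sets high beside normal glucose in the parental line, and L5 against HG sets the subline beside the parental line at the same glucose. Each group had 1 library, so no difference has a replicate check, no test was possible, and every value describes these libraries. Where 3 levels are given together they stand in the order NG, HG, L5, and 3 ratios in the order HG over NG, L5 over HG, L5 over NG.

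A ribosome joins a small subunit, which reads the message, to a large subunit, which forms the peptide bond and passes the new chain through an exit tunnel. Their proteins are made in near-equal numbers, and cells keep them in step partly through the messages themselves. Most ribosomal protein messages begin with a run of pyrimidines, the 5′ terminal oligopyrimidine or TOP motif, through which LARP1 and the kinase mTOR adjust their translation and stability to nutrients.

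Promoter windows were available from RefSeq (GRCh38.p14) for 62 of the 77 genes, and not for RPL5 or RPL23A. The windows below were chosen from genes with large ratios or the highest listed FPKM of the small subunit. RPL15 was added as a gene without a run. Not every gene with a large ratio is shown. Each shows 30 bases before and 20 bases from the annotated start on the strand of the gene. The capitals mark the longest run of C and T that begins with C within 10 bases of that start and spans at least 5 bases.

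RPL4: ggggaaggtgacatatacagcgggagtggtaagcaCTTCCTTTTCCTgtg
RPL11: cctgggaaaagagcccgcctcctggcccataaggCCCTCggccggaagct
RPL7A: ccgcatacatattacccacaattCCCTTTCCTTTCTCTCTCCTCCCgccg
RPS3: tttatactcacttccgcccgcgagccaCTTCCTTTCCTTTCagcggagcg
RPS24: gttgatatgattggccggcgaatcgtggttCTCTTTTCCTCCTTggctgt
RPSA: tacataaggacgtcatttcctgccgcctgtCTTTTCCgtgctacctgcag
RPL29: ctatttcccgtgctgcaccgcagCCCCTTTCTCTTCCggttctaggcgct
RPS10: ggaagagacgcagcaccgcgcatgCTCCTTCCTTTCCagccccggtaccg
RPS12: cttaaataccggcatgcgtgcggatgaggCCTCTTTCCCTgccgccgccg
RPL15: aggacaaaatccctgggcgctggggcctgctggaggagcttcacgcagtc

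On GRCh38.p14 the windows lie at chr15:66504836-66504885 (minus strand), chr1:23691749-23691798 (plus), chr9:133348188-133348237 (plus), chr11:75399488-75399537 (plus), chr10:78033833-78033882 (plus), chr3:39406690-39406739 (plus), chr3:51995876-51995925 (minus), chr6:34426050-34426099 (minus), chr6:132814539-132814588 (plus) and chr3:23916515-23916564 (plus). A run stood at the start of 55 of the 62 genes, or 88.7%, against 33.3% of 27305 RefSeq promoters read the same way. Its median length over those 55 genes was 11 bases, and the longest, in RPL7A, spanned 23. The 7 genes without a run by this rule were RPL13, RPL15, RPL17, RPL27, RPL6, RPS29 and RPS4X. Runs that begin farther from the annotated start were not counted, as in RPL17, RPL27 and RPS29. Any further annotated start of a gene was not read. Within the whole window of 300 bases on either strand, CTTTCC was found in 46.8% of the matched genes against 26.3% of all promoters, where it may lie inside the pyrimidine run. CCGGAAG was found in 33.9% against 10.7%, AAGATGGC in 9.68% against 3.03%, and TATAA in 17.7% against 21.1%. These are matches of letters in a window and not sites shown to be bound.

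Depth, estimated from the coverage columns, was 47.1 M fragments (NG), 76.0 M (HG) and 68.7 M (L5), so NG, in which most members were highest, was also the shallowest, and the part of depth in these results was not tested. At least 1 FPKM was listed for 12853, 12438 and 12623 genes on main chromosomes. Cholangiocyte markers at 1 FPKM or more numbered 6 of 12 in NG and 7 in the other libraries, led by KRT7 at 992, 784 and 789 FPKM, with ONECUT1 listed at 0 in NG and HG. Of 8 hepatocyte markers, SERPINA1 alone reached it, and APOA1, APOB, TF and TTR were listed at 0 in all 3 libraries. The summed level of the hepatocyte list was 77.9, 27.8 and 36.5 FPKM, and that of the 7 fibroblast markers was 8.33, 3.51 and 3.19 FPKM. The 5 leukocyte markers summed to between 13.5 and 18.0 FPKM, and the 3 endothelial markers to between 0.0491 and 0.0648 FPKM. These sums were also higher in NG for hepatocyte and fibroblast markers, and their part in the results was not tested. In bulk RNA, fewer cells that use a gene and less of its RNA per cell cannot be told apart.

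The ribosomal protein genes held 16.3% (NG), 15.1% (HG) and 14.3% (L5) of all summed FPKM. Among the 100 genes with the highest FPKM, 61 were members in NG, 58 in HG and 53 in L5. The large subunit made up 10.0%, 9.26% and 8.97% of summed FPKM, and the small subunit 6.33%, 5.88% and 5.32%. The summed FPKM of the large subunit was 1.58 times that of the small subunit in NG, 1.57 times in HG and 1.69 times in L5. Both subunits thus held less of the message pool in HG than in NG and less again in L5.

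The median member stood at 1252 FPKM (NG), 1154 FPKM (HG) and 1059 FPKM (L5). Within the large subunit the median was 1313, 1195 and 1108 FPKM, and within the small subunit 1179, 1103 and 904 FPKM. Although the proteins are needed in near-equal numbers, the highest message exceeded the lowest 13.2-fold in NG, 12.5-fold in HG and 11.9-fold in L5. From the centres of the deposited intervals, which for the lowest gene, RPS15, lie below its FPKM, the range was 22.7-fold, 17.5-fold and 17.5-fold. The order of the genes was much the same in each library, with Spearman's rho over the 77 genes of 0.937 between NG and HG, 0.920 between NG and L5 and 0.940 between HG and L5. These coefficients describe levels that share gene length, sequence and quantification, and L5, HG and NG values enter 2 of them each.

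Among large subunit genes, RPL7, RPL5, RPL41 and RPL39 were highest over the 3 libraries. RPL7 was listed at 3143 FPKM (NG), 2272 FPKM (HG) and 2514 FPKM (L5). RPL41, the shortest protein of the ribosome, was listed at 2369, 1794 and 1779 FPKM, and RPL39, which lines the exit tunnel, at 2288, 1827 and 1715 FPKM. Both were highest in NG with HG and L5 close together. The lowest was RPLP2, a protein of the stalk that recruits elongation factors, at 359 FPKM (NG), 344 FPKM (HG) and 344 FPKM (L5), with overlapping intervals in all 3 libraries. RPL36 was listed at 579, 484 and 436 FPKM and RPL22 at 572, 431 and 506 FPKM.

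Among small subunit genes, RPS24, RPS3, RPS21 and RPS27 were highest by FPKM. RPS24, mutated in some families with Diamond-Blackfan anemia, was listed at 2790 FPKM (NG), 2686 FPKM (HG) and 2590 FPKM (L5), close to level across the libraries. Its intervals lay far below these values, and by interval centres it ranked 9 in NG, 5 in HG and 3 in L5 among the small subunit genes. RPS21 was listed at 2328, 1923 and 1695 FPKM and RPS27 at 2088, 1611 and 1407 FPKM, each lower in HG than in NG and lowest in L5. RPS15, which reaches toward the decoding site, was the lowest member of all at 237, 215 and 218 FPKM. RPS28 was listed at 411, 366 and 329 FPKM and RPS26, which contacts the message near the exit channel, at 424, 381 and 368 FPKM. RPS18 was listed at 388, 414 and 312 FPKM at its main gene ID, and its low rank goes with reads listed at copies of the gene, given with the copies below.

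**Figure D1:**
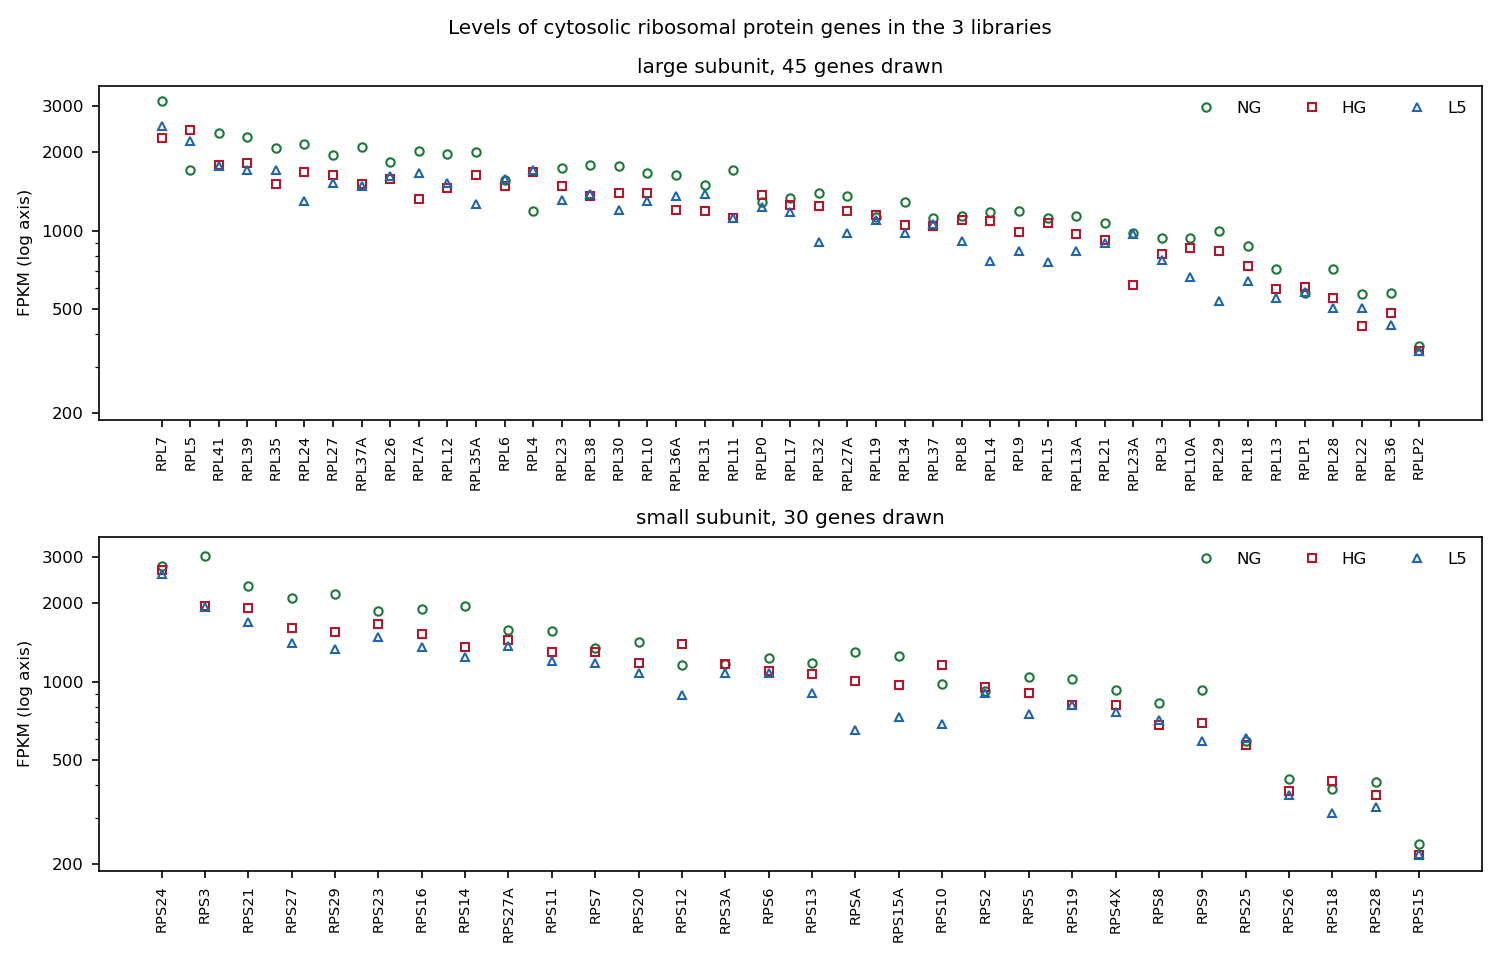
FPKM (log axis) of 45 large and 30 small subunit genes in NG (circles), HG (squares) and L5 (triangles), ordered by their mean; each point is 1 library. NG lies highest for most genes, while RPL5 and RPL4 lie lower in NG than in the other 2 libraries.

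The deposited tables give a 95% interval with each FPKM, which covers the estimation from fragments and not the spread between cultures. For 26 members in NG, 43 in HG and 32 in L5 the listed FPKM lay outside its own interval. RPL11, for example, was listed at 1707 FPKM in NG with an interval of 1709 to 1758. In 16 members the centre of the interval lay more than 10% from the FPKM in at least 1 library. For 15 of these it did so in every library, RPS29 showing the widest gap with 2175 FPKM in NG beside an interval of 577 to 611. RPL32 was the exception, with 1241 FPKM in HG beside an interval of 812 to 834, while its NG and L5 intervals held the FPKM. The other 15 were RPL22, RPL29, RPL36A, RPL38, RPL6, RPL8, RPS13, RPS15, RPS15A, RPS2, RPS24, RPS28, RPS29, RPS3 and RPS7. For these genes a level is uncertain, and small ratios are too. Taken from interval centres the sign turned for 3 members in HG over NG, 4 in L5 over HG and 3 in L5 over NG. RPS24 was among them each time, at 0.06, 0.03 and 0.09 in place of -0.05, -0.05 and -0.11.

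Between HG and NG, the median log2 ratio of FPKM + 1 over the 77 genes was -0.25, against -0.10 over all 12976 genes measured. The large subunit had a median of -0.25 and the small subunit of -0.19. Of the 77 genes, 67 were lower in HG, or 87.0%, against 62.7% of all genes. Other genes that reached 200 FPKM in either library, 335 in number, had a median of -0.20, nearer to that of the members than all genes. That set was not matched to the members in level, since the median member stood at 1252 FPKM in NG and 1154 FPKM in HG. The 76 mitochondrial ribosomal protein genes, whose products build the ribosome of the mitochondrion, had a median of -0.07.

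A log2 ratio of at least 0.5 in size was used as the fold that counts as past the rule. In HG over NG 2 members were higher by it, against 6.06% of all genes, and 5 were lower, against 13.9%. The share of members past the fold in either direction was therefore under that of all genes. With values scaled to TPM 2 members were higher and 2 lower, against 8.85% and 9.68% of all genes. With spike-in scaling 0 were higher and 62 lower, against 2.13% and 48.2% of all genes. No member had a ratio of 1 or more in size, against 4.3% of all genes. Deposited intervals were separate for 69 members, against 49.3% of all genes and 308 of the 335 other genes at 200 FPKM or more. The 69 members comprised 8 higher and 61 lower, against 17.3% and 32% of all genes, with the direction taken from the FPKM. RPS24, counted as lower by FPKM, had an HG interval above its NG interval. The 308 others comprised 92 higher and 216 lower.

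RPL5 and RPL4 were the 2 higher members. RPL5 (chr1:93297582-93307481, GRCh37), which carries 5S ribosomal RNA into the large subunit, was listed at 1709 FPKM (NG), 2433 FPKM (HG) and 2207 FPKM (L5). RPL4 (chr15:66790355-66816870, GRCh37), which lines the exit tunnel, was listed at 1185 FPKM (NG), 1683 FPKM (HG) and 1708 FPKM (L5). For both genes the NG library was the low one and its interval lay below those of HG and L5. The log2 ratio of HG over NG was 0.51 ± 0.01 for each, where the error is the counting standard error taken from the intervals. Genes within 5 Mb had medians of 0.38 around RPL5 and 0.26 around RPL4, and the part of these neighbourhoods was not tested.

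RPL23A, RPS3, RPL7A, RPL11 and RPS14 were the 5 lower members. RPL23A (chr17:27046411-27051377, GRCh37), the docking protein at the mouth of the exit tunnel, was listed at 977 FPKM (NG), 621 FPKM (HG) and 972 FPKM (L5), so that HG alone was low. RPS3 (chr11:75110530-75133324, GRCh37), which lies where the message enters the small subunit, was listed at 3037 FPKM (NG), 1951 FPKM (HG) and 1938 FPKM (L5), so that NG alone was high. Their HG over NG ratios were -0.65 ± 0.02 and -0.64 ± 0.01, beside medians of -0.24 and -0.20 for the genes within 5 Mb. The ratio of RPS3 from interval centres was -0.59.

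RPL11 (chr1:24018269-24022915, GRCh37), the partner of RPL5 in the 5S particle, was listed at 1707 FPKM (NG), 1120 FPKM (HG) and 1118 FPKM (L5). RPL7A (chr9:136215069-136218281, GRCh37), a large subunit protein whose introns hold 4 snoRNA genes, was listed at 2022, 1327 and 1667 FPKM. RPS14 (chr5:149822753-149829319, GRCh37), a small subunit protein known for its loss in the 5q deletion syndrome, was listed at 1959, 1360 and 1246 FPKM. The NG value was the highest for each of these genes, and the intervals of NG and HG were separate. Ratios of HG over NG were -0.61 ± 0.01 for RPL11, -0.61 ± 0.01 for RPL7A and -0.53 ± 0.01 for RPS14. The genes within 5 Mb of RPL7A had a median of -0.44, while those around RPL11 and RPS14 had medians of -0.07 and -0.16.

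The next higher members were RPS12 at 0.27 and RPS10 at 0.24, both on chromosome 6, followed by RPS18 and RPLP0 at 0.09. In all, 9 members were highest in HG, against 24.6% of all genes, namely RPL19, RPL5, RPLP0, RPLP1, RPS10, RPS12, RPS18, RPS2 and RPS3A. Of these, RPS3A differed by no more than counting error between HG and NG, at 1168 and 1164 FPKM with overlapping intervals. The intervals of RPL19 in HG and NG also overlapped, at 1150 and 1124 FPKM.

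**Figure D2:**
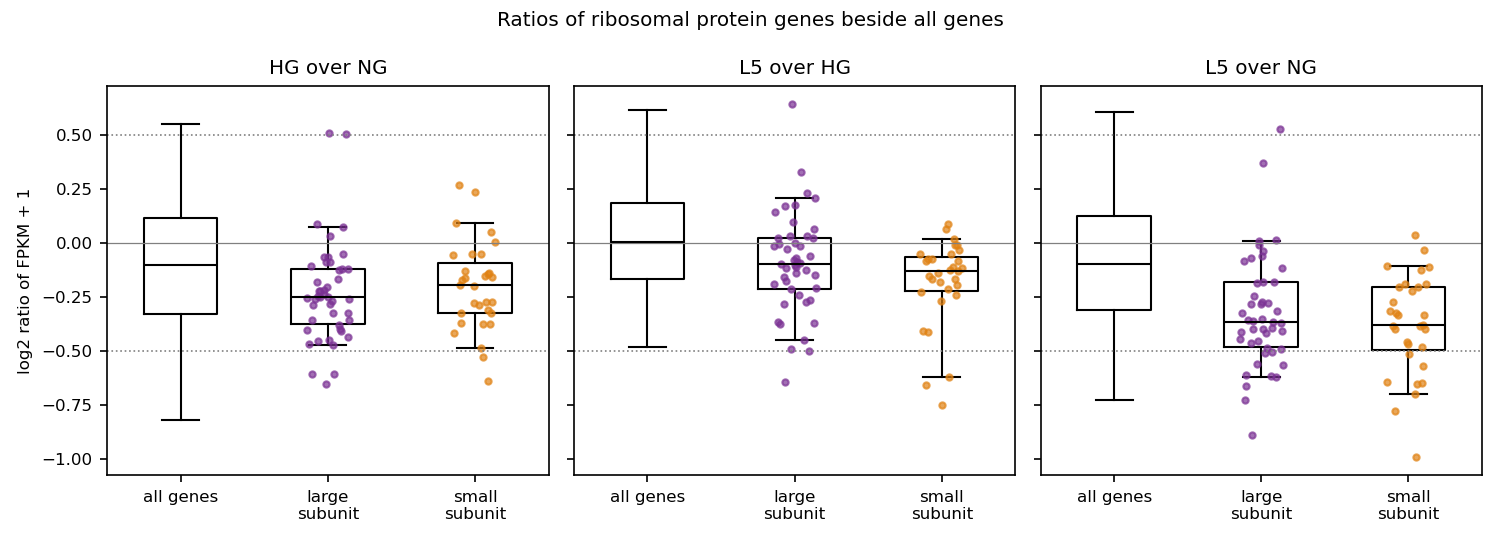
Log2 ratios of FPKM + 1 in each comparison, with boxes for all genes measured and for large and small subunit genes (median, quartiles, whiskers at the 5th and 95th percentile) and a point for each member, spread sideways for legibility. Dotted lines mark 0.5 and -0.5; the members' medians lie at -0.25, -0.11 and -0.37 over both subunits, below those of all genes at -0.10, 0.00 and -0.10.

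Between L5 and HG the members differed less. The median log2 ratio was -0.11, against 0.00 over 12733 genes, with -0.10 for the large and -0.13 for the small subunit. Of the 77 genes, 60 were lower in L5, against 49.7% of all genes. The other genes at 200 FPKM or more had a median of 0.01 over 313 genes, and the mitochondrial ribosomal protein genes one of -0.12. Past the fold, 1 member was higher, against 7.48% of all genes, and 4 were lower, against 4.34%. With spike-in scaling 0 were higher and 44 lower, against 2.67% and 27.3% of all genes. Intervals were separate for 63 members, against 43.4% of all genes and 262 of the 313 other genes at 200 FPKM or more. The 63 members comprised 12 higher and 51 lower, against 21.6% and 21.8% of all genes. RPL32, counted as lower by FPKM, had an L5 interval above its HG interval. The 262 others comprised 139 higher and 123 lower. No member had a ratio that reached 1 in size, against 2.29% of all genes.

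RPL23A was the higher one, with a ratio of 0.65 ± 0.02 from 621 FPKM (HG) and 972 FPKM (L5). This comparison shares the HG library with that of HG over NG, in which RPL23A was the lowest member, and the L5 level of RPL23A was 0.994 times that of NG. RPL7A followed at 0.33, RPL22 at 0.23, RPL31 at 0.21 and RPL36A at 0.18, each of them also lower in HG than in NG. RPL31, beside the exit tunnel, was listed at 1495, 1194 and 1380 FPKM, lowest in HG.

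RPS10, RPS12, RPL29 and RPSA were the 4 lower members. RPS10 (chr6:34385231-34393902, GRCh37), a small subunit protein mutated in some families with Diamond-Blackfan anemia, was listed at 979 FPKM (NG), 1154 FPKM (HG) and 685 FPKM (L5). RPS12 (chr6:133135580-133138703, GRCh37), a protein of the head of the small subunit, was listed at 1159, 1398 and 887 FPKM. For both genes HG was the highest library and L5 the lowest, and all 3 intervals were apart. Their L5 over HG ratios were -0.75 ± 0.02 and -0.66 ± 0.02.

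RPL29 (chr3:52027616-52029958, GRCh37), a large subunit protein that also binds heparin, was listed at 993 FPKM (NG), 837 FPKM (HG) and 536 FPKM (L5). RPSA (chr3:39448180-39454033, GRCh37), a small subunit protein also known as a laminin receptor, was listed at 1304, 1006 and 655 FPKM. For both, NG was highest, L5 was lowest and the intervals were separate. Their L5 over HG ratios were -0.64 ± 0.02 and -0.62 ± 0.01. The interval of RPL29 in each library lay below its FPKM, at 672 to 697 in NG, 594 to 611 in HG and 383 to 399 in L5, and the ratio from interval centres was -0.62. RPL14, the next lowest at -0.50, was listed at 1180, 1086 and 768 FPKM.

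Between L5 and NG, the pair that differs in both line and glucose, the median log2 ratio was -0.37, against -0.10 over 13085 genes. The large subunit stood at -0.36 and the small subunit at -0.38. Of the 77 genes, 72 were lower in L5, against 61.9% of all genes. Other genes at 200 FPKM or more had a median of -0.15 over 344 genes, and mitochondrial ribosomal protein genes one of -0.19. This comparison shares a library with each of the others and is no separate evidence.

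Past the fold, 18 members were lower in L5 than in NG, against 12.3% of all genes, and 1 was higher, against 7.19%. Intervals were separate for 70 members, against 47.8% of all genes and 305 of the 344 other genes at 200 FPKM or more. The 70 members comprised 3 higher and 67 lower, against 16.8% and 31% of all genes. RPS24, counted as lower by FPKM, had an L5 interval above its NG interval. The 305 others comprised 94 higher and 211 lower. With values scaled to TPM 6 members were lower and 2 higher, against 7.6% and 10.7% of all genes. With spike-in scaling 75 were lower and 0 higher, against 80.8% and 1.6% of all genes. No ratio reached 1 in size, against 3.96% of all genes. The higher member was RPL4 at 0.53 ± 0.01, which spike-in scaling turned to -0.32. RPL5 came next at 0.37.

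RPSA was the lowest member at -0.99 ± 0.01, about 0.502 times its NG level, followed by RPL29 at -0.89 ± 0.02. RPS15A, a small subunit protein, was listed at 1252 FPKM (NG), 969 FPKM (HG) and 729 FPKM (L5), a ratio of -0.78 ± 0.02. RPL24, which forms a bridge between the subunits, was listed at 2160, 1685 and 1305 FPKM, a ratio of -0.73 ± 0.01. Both were highest in NG and lowest in L5. RPS29, a zinc-binding protein of the head of the small subunit, was listed at 2175, 1551 and 1339 FPKM, a ratio of -0.70 ± 0.03. Taken from interval centres it was -0.37, which is not past the fold. The ratios of RPS15A and RPL29 from interval centres were -0.65 and -0.81, apart from the FPKM ratios by more than the counting error. The other 13 were RPL35A, RPS14, RPS3, RPS9, RPL14, RPL32, RPL11, RPS27, RPL30, RPL15, RPS10, RPL9 and RPL28, between -0.66 and -0.51. Among them RPL35A was listed at 2002, 1641 and 1265 FPKM and RPS9 at 927, 694 and 592 FPKM.

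Across the 3 libraries, 51 of the 77 members were higher in NG than in HG and higher in HG than in L5, 28 of the large and 23 of the small subunit. Over 13194 genes that order was seen in 24.9%. NG was the highest library for 65 members, against 49.7% of all genes, and L5 the lowest for 58, against 36.9%. L5 was the highest library for 3 members, against 25.7% of all genes. These were RPL4, RPL6 and RPS25, the last of which is needed for translation from several internal entry sites. RPL6 was listed at 1570, 1478 and 1583 FPKM and RPS25 at 592, 570 and 607 FPKM, each within 0.10 on the log2 scale.

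**Figure D3:**
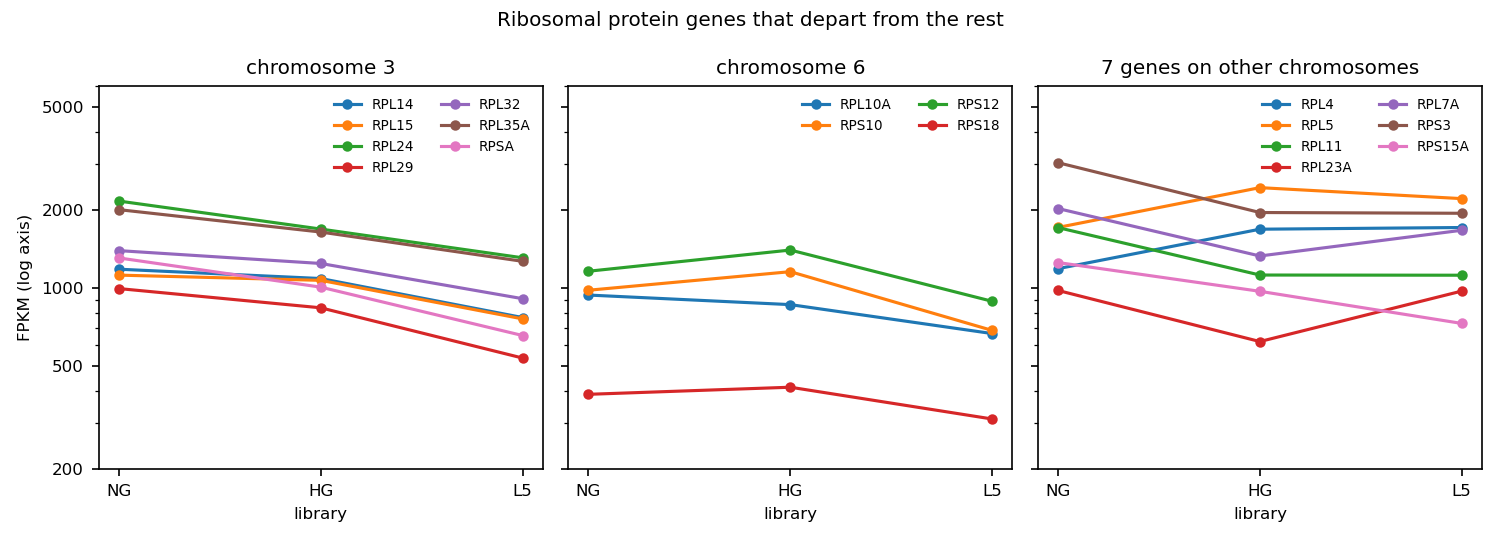
FPKM (log axis) in NG, HG and L5 of the 7 members on chromosome 3, the 4 on chromosome 6 and 7 members on other chromosomes with ratios named in the text; each point is 1 library and lines only join the values of 1 gene. All 11 genes in the first 2 panels are lowest in L5 by FPKM (RPL32 is not by interval centres), whereas RPL23A is low in HG alone and RPL4 and RPL5 are low in NG.

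Ribosomal protein genes are scattered over 21 chromosomes here, with the largest number, 12, on chromosome 19. The lowest L5 over HG ratios were gathered on 2 chromosomes. Of the 12 lowest L5 over HG ratios, 11 belonged to the 11 members on chromosomes 3 and 6, and the other was RPS15A on chromosome 16 at -0.41. Of the 66 members elsewhere, 49 were also lower in L5 than in HG, against 49.7% of all genes on any chromosome. The share of genes off chromosomes 3 and 6 was not computed. The 7 members on chromosome 3, RPL14, RPL15, RPL24, RPL29, RPL32, RPL35A and RPSA, lay between -0.64 and -0.37 with a median of -0.49. RPL32, at -0.45, stood at 0.16 when interval centres were used, since its HG interval lay below its FPKM. The 731 other genes measured on chromosome 3 had a median of -0.30. The 4 members on chromosome 6, RPL10A, RPS10, RPS12 and RPS18, had a median of -0.53, and the 620 other genes there one of -0.31.

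In HG over NG the chromosome 6 members stood at a median of 0.16 and the other genes of that chromosome at 0.24, while the chromosome 3 members stood at -0.25 and the others at -0.15. In L5 over NG the medians on chromosome 3 were -0.66 for the members and -0.43 for the others, and all 7 members were past the fold. On chromosome 9 the members RPL12, RPL35, RPL7A and RPS6 had a median of -0.45 in HG over NG and 0.12 in L5 over HG, beside -0.22 and 0.23 for the other genes. On chromosome 19, RPL13A, RPL18 and the 10 other members had medians of -0.26 and -0.16 beside -0.10 and -0.01. On each of these 4 chromosomes members and other genes had medians of the same sign in HG over NG and in L5 over HG. The members stood lower than the other genes in both comparisons. The part of the chromosomal setting was not tested.

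Leaving out the 11 members on chromosomes 3 and 6 was chosen after the data were seen. The median L5 over HG ratio was then -0.09, no member was lower by the fold and RPL23A remained higher. For L5 over NG the median was -0.33, with 10 members lower and 1 higher. Shares of all genes past the fold without these chromosomes were not computed. Over all 77 members the ratio of a gene and the median ratio of the genes within 5 Mb had Pearson's r of 0.66 for HG over NG, 0.73 for L5 over HG and 0.58 for L5 over NG, with Spearman's rho of 0.38, 0.55 and 0.32. Over the 66 members off chromosomes 3 and 6 Pearson's r was 0.63, 0.34 and 0.47, and rho 0.31, 0.29 and 0.17. Each of these points shares its 2 libraries with its neighbourhood, and members close together share neighbours.

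**Figure D4:**
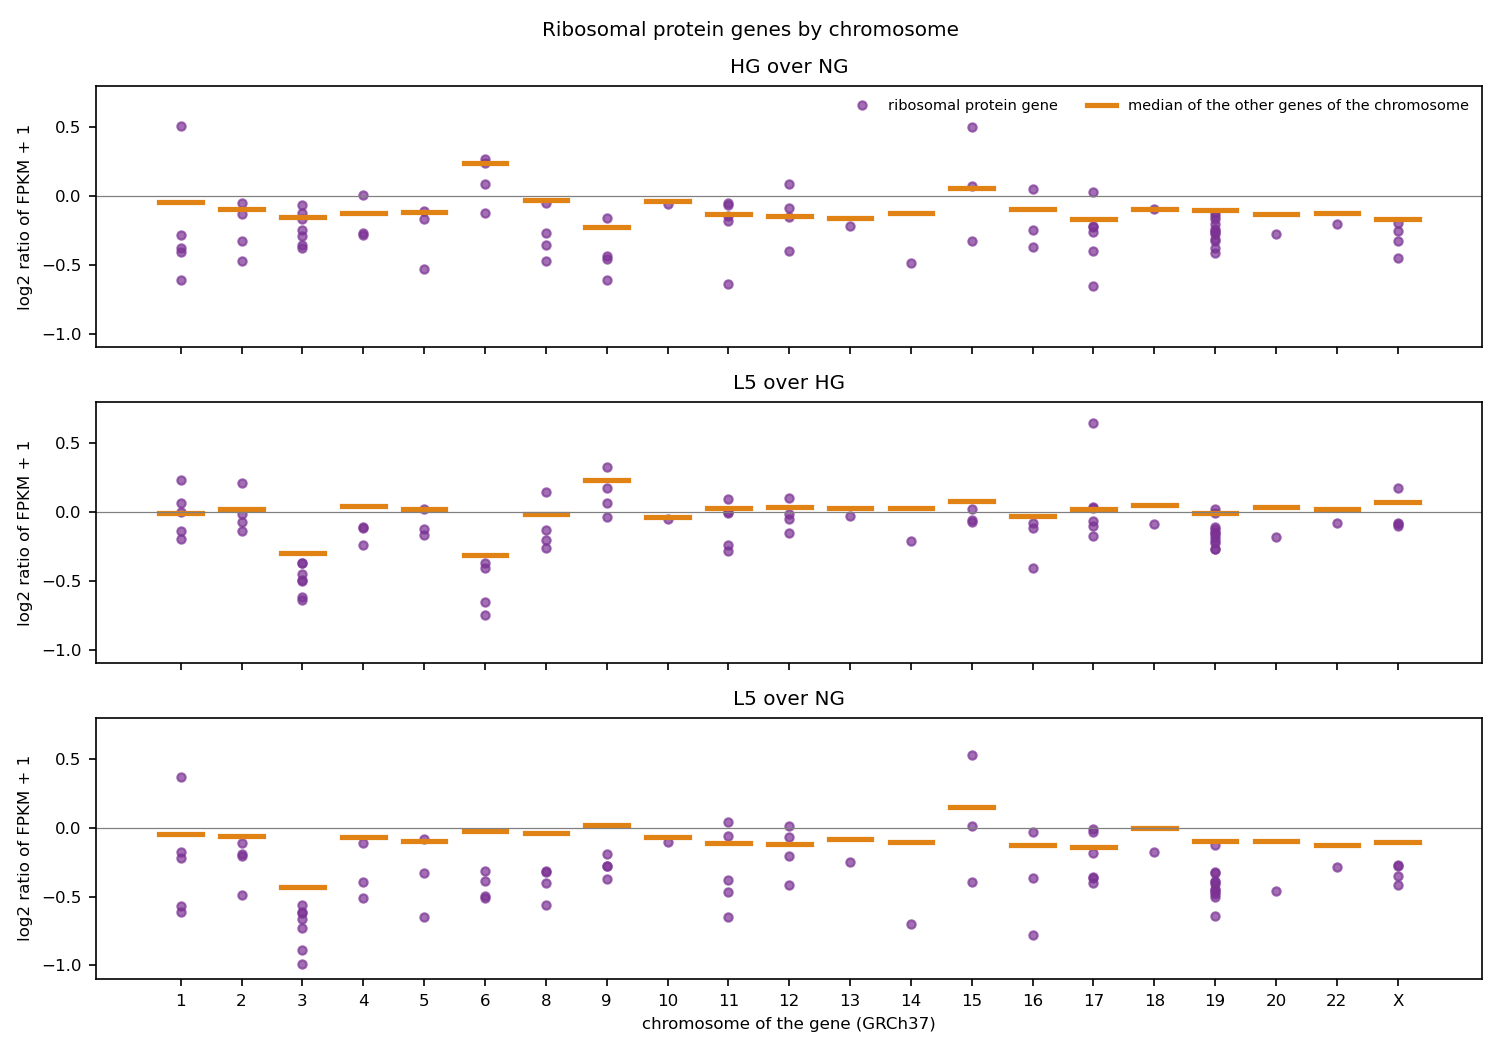
Log2 ratio of FPKM + 1 of each member (points) and median of the other genes measured on the same chromosome (bars), by chromosome, for HG over NG, L5 over HG and L5 over NG. In L5 over HG the 11 members on chromosomes 3 and 6 lie between -0.75 and -0.37, with medians of -0.30 and -0.31 for the other genes there.

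By role, the stalk proteins RPLP0, RPLP1 and RPLP2 had ratios between -0.16 and 0.09 in all comparisons. RPLP0, which anchors the stalk, was listed at 1288 FPKM (NG), 1369 FPKM (HG) and 1229 FPKM (L5). RPLP1 was listed at 577, 608 and 583 FPKM, and RPLP2 as given above. RPL12, at the base of the stalk, was listed at 1968, 1454 and 1524 FPKM, lower in HG than in NG at -0.44 ± 0.01. The medians of the 4 genes were 0.01, -0.03 and -0.07 in HG over NG, L5 over HG and L5 over NG.

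RPL5 and RPL11, whose particle with 5S ribosomal RNA can also bind the ubiquitin ligase MDM2, went opposite ways. They were listed at nearly equal levels in NG, 1709 and 1707 FPKM, and apart in HG, 2433 and 1120 FPKM, and in L5, 2207 and 1118 FPKM. The nearby genes of RPL5 had a median of 0.38 and those of RPL11, on the same chromosome, one of -0.07.

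Around the exit tunnel, 7 genes were listed, RPL4, RPL17, RPL19, RPL23A, RPL31, RPL35 and RPL39. Their HG over NG ratios ran from -0.65 for RPL23A to 0.51 for RPL4, with a median of -0.32, and their L5 over HG ratios had a median of 0.02. The 13 genes of the head of the small subunit had medians of -0.20 and -0.15, with RPS3 past the fold in HG over NG and RPS10 and RPS12 in L5 over HG. A partial list of 10 genes mutated in Diamond-Blackfan anemia had medians of -0.19, -0.06 and -0.27, with RPL5 and RPL11 past the fold in HG over NG, RPS10 in L5 over HG, and RPL35A, RPL11 and RPS10 in L5 over NG. RPS6, the substrate of the S6 kinases that act below mTOR, was listed at 1230, 1103 and 1077 FPKM, with ratios of -0.16 and -0.03.

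Many ribosomal protein genes carry small nucleolar RNA genes in their introns, and 29 of the 77 members did so by position. Their median ratios were -0.22, -0.11 and -0.36, beside -0.26, -0.12 and -0.38 for the 48 members without one. The 55 genes with a pyrimidine run at the RefSeq start had median ratios of -0.25, -0.11 and -0.37, and the 7 without -0.19, -0.10 and -0.36. In HG over NG the 7 ranged from -0.49 to -0.07 and the 55 from -0.64 to 0.51. The difference between them was not tested. The search rule leaves out runs that begin farther from the start, so the 7 genes need not lack a TOP motif.

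Several members have a second, expressed copy. RPL22L1, the copy of RPL22, was listed at 624 FPKM (NG), 417 FPKM (HG) and 469 FPKM (L5), beside 572, 431 and 506 FPKM for RPL22, and both were lowest in HG. The NG intervals were 611 to 649 for the copy and 371 to 389 for RPL22, so that the level of the copy relative to its parent is uncertain. RPL7L1, on chromosome 6, was listed at 79.3, 141 and 87.6 FPKM, highest in HG, whereas RPL7 was lowest in HG. RPL36AL was listed at 269, 218 and 230 FPKM beside 1642, 1201 and 1357 FPKM for RPL36A. RPL26L1 was listed at 87.3, 84.2 and 77.0 FPKM beside 1841, 1582 and 1619 FPKM for RPL26.

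RPS27L was listed at 32.5, 38.7 and 41.4 FPKM, lowest in NG, where RPS27, at 2088, 1611 and 1407 FPKM, was highest. No ratio of RPS27L was past the fold. RPL39L, best known from testis, was listed at 11.2, 8.49 and 8.36 FPKM beside 2288, 1827 and 1715 FPKM for RPL39. RPL3L, known from heart and skeletal muscle, and RPL10L, known from testis, reached at most 0.0338 and 0.0225 FPKM, beside RPL3 at 940, 815 and 771 FPKM and RPL10 at 1666, 1399 and 1305 FPKM.

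Reads were also listed at near-identical copies. The 5 gene IDs of RPS18 on alternate contigs summed to 1621, 1765 and 1307 FPKM, more than at the main ID, and with it to 2009, 2179 and 1619 FPKM. The ratios of that total, 0.12 in HG over NG and -0.43 in L5 over HG, lay near the 0.09 and -0.41 of the main ID. Among 671 gene IDs named as processed copies of members, 86 reached 1 FPKM, and all of them summed to 4709, 4175 and 3822 FPKM, equal to 4.46%, 4.66% and 4.61% of the summed member FPKM. RPL41P1 led them at 1425, 1153 and 1122 FPKM.

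In 36 members a single isoform held at least 90% of the gene's FPKM as the mean of the libraries, and in 9 the leading isoform held under 50%. Isoform shares moved by 10 points or more for 4 isoforms of 2 genes between HG and NG, RPL7 and RPS25. In RPL7, ENST00000435330 (445 nt) was listed at 1221 FPKM (NG), 381 FPKM (HG) and 696 FPKM (L5), while ENST00000396466 (762 nt) was listed at 1025, 1132 and 1012 FPKM. The longest, ENST00000352983 (1101 nt), was listed at 884, 744 and 795 FPKM. The lower RPL7 level in HG was thus listed mostly at the shortest isoform and in part at the longest, while that of 762 nt was higher in HG than in NG. In RPS25, ENST00000532567 held 28.6% in NG, 18.5% in HG and 20.1% in L5.

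In L5 the share of ENST00000262584 of RPL8 was 10.3%, beside 20.7% in NG and 21.1% in HG, and that of ENST00000524496 of RPL27A was 46.3%, beside 29.6% and 36.9%. The isoforms of RPL4 kept their shares within 5 points, so its higher level in HG was listed across them, apart from 2 minor isoforms at 22.1 and 19.6 FPKM in NG whose ratios were 0.04 and 0.07. RPL5 had 99.4% of its NG level on ENST00000370321 and RPL11 99.4% on ENST00000374550. RPL23A was listed over 5 isoforms, of which the leading ENST00000394935 had ratios of -0.68 in HG over NG and 0.53 in L5 over HG. The minor isoforms ENST00000582736 and ENST00000394938, at 33.1 and 12.6 FPKM in NG, were higher in HG than in NG, at 0.22 and 0.27.

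Genes that share the TOP motif or serve the same pathway had medians nearer to 0 in HG over NG and in L5 over NG than the members. The 17 translation factors and companions with TOP messages had a median of -0.05 in HG over NG, where 11 of them were lower and 0 were past the fold. Their medians were -0.01 in L5 over HG and -0.12 in L5 over NG over 16 genes, of which 8 and 11 were lower, again with 0 past the fold. In HG over NG the lowest were EEF1D at -0.38 and NAP1L1 at -0.32, and the highest EEF1A1 at 0.26 and EIF3E at 0.22. In L5 over HG they were FAU at -0.29 and EEF1A1 at -0.27, and TPT1 at 0.41 and NAP1L1 at 0.19. In L5 over NG they were FAU at -0.46 and EEF1D at -0.34, and EEF2 at 0.28 and PABPC1 at 0.26. EEF2, the elongation factor that moves the ribosome along, was listed at 453, 504 and 552 FPKM, lowest in NG and highest in L5. FAU, which encodes a small subunit protein joined to a ubiquitin-like one, was listed at 445, 393 and 322 FPKM, and GNB2L1, the scaffold RACK1 of the small subunit, at 1327, 1286 and 1222 FPKM. Both had the order of most members, NG over HG over L5. TPT1, highest in L5, was listed at 2308, 2072 and 2753 FPKM.

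Translation initiation factors had medians of -0.00, -0.05 and -0.00, with EIF3J past the fold in HG over NG at 0.62 (85.4 FPKM for NG, 132 for HG, 133 for L5). EIF3M followed at 0.30, and EIF2S3 at -0.28 and EIF3G at -0.19 were lowest. In L5 over HG the ends were EIF3K at -0.29 and EIF4G2 at -0.13, and EIF3C at 0.21 and EIF1 at 0.15. EIF4A2 had no usable estimate in HG and EEF1B2 none in L5, where the tables list 0 with a failed status, and those ratios were left out. Between L5 and NG, EIF3J was past the fold at 0.63 and EIF4A2, on chromosome 3, at -0.70, with 435 FPKM in NG and 268 in L5. EIF1 stood at 0.29 and EIF3K at -0.27. The 38 ribosome biogenesis genes had a median of 0.11 in HG over NG, where that of the members was -0.25, with 4 higher and 1 lower by the fold. The higher ones were RPF2 at 0.78, POLR1B, a subunit of RNA polymerase I, at 0.76, MDN1 at 0.65 and BYSL at 0.62, of which RPF2, MDN1 and BYSL lie on chromosome 6. The lower one was FBL, the snoRNA-guided methyltransferase fibrillarin, at -0.52, with 286, 198 and 208 FPKM, and NHP2 followed at -0.28. In L5 over HG their median was -0.13, with GNL3 at -0.72, BYSL at -0.69 and MDN1 at -0.60 past the fold, GNL3 lying on chromosome 3, and with NOP10 at 0.20 and SBDS at 0.12 highest. In L5 over NG their median was -0.06, with GNL3 at -0.64 and RRP9, also on chromosome 3, at -0.50 past the fold, and with SDAD1 at 0.41 and NOLC1 at 0.36 highest.

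Of the regulators, MYC, a transcription factor that drives ribosomal protein genes, was listed at 103 FPKM (NG), 153 FPKM (HG) and 140 FPKM (L5), higher in HG by 0.56 while most members were lower. TSC1, an inhibitor of mTOR signalling, was listed at 10.1, 6.73 and 9.54 FPKM, lower in HG by the fold at -0.52. LARP1, the protein that binds TOP messages, was listed at 94.7, 104 and 104 FPKM and MTOR at 7.51, 8.98 and 8.11 FPKM, neither past the fold. In HG over NG, MTOR at 0.23 was next to MYC and RPTOR at -0.19 next to TSC1. In L5 over HG the ends were MLST8 at -0.27 and RPS6KB1, an S6 kinase, at -0.24, and TSC1 at 0.45 and RPTOR at 0.34. In L5 over NG they were RPS6KB1 at -0.41 and MLST8 at -0.09, and MYC at 0.44 and EIF4EBP1 at 0.21. The 12 regulators measured had medians of 0.03, -0.03 and 0.04. RNA levels of these genes carry no measure of translation or of kinase activity.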

How the data were processed

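Poly-A RNA of KKU-213 in 5.6 mM (NG) or 25 mM glucose (HG) and of KKU-213L5 in 25 mM glucose (L5) was made into stranded libraries and read from both ends over 100 bases, per the labels' protocols. Each group has 1 library. BWA, TopHat, Cufflinks and GRCh37 are named, without versions, per the submitters' processing notes. FPKM values and their 95% interval bounds were used as deposited, for genes and isoforms. The coverage values, a read depth per transcript that is not scaled to library size, per the file headers, served only to estimate depth from 200 bases per fragment.

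Ratios are log2 of FPKM with a pseudocount of 1, which understates differences of low genes but hardly touches members. The background of a pair of libraries was every gene on main chromosomes with status OK in both, 1 FPKM in either and a longest isoform of at least 300 nt, without spike-ins. Counting standard errors came from interval widths relative to their centres. Intervals were called separate when the deposited bounds did not overlap, and the direction was taken from the FPKM ratio. Depth of 47.1 M to 76.0 M fragments gave members a median counting error of about 0.02 on the log2 scale, and intervals cover counting and assignment of reads only. With 1 library per group no test could be made. Reads of near-identical copies may be split between gene IDs by the authors' quantification.

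Promoter windows are RefSeq's (GRCh38.p14) and were matched by symbol; other coordinates are GRCh37, 1-based. Every member may be named by the rule. Full values go to the 4 highest and 4 lowest levels per subunit, the 5 highest and 5 lowest ratios per comparison, members past the fold, the stalk, 5S particle, RPS6 and RPSA, and members with a second copy. Values of a few genes are not reported here. The 4 pathway lists give their 2 highest and 2 lowest ratios at 5 FPKM or more and those past the fold; the other lists are given as medians or sums with examples. GNB2L1, LARP1 and the isoforms were chosen after their values were seen. The members and the 15 gene lists were chosen with earlier results of these data known. Alternatives were other pseudocounts, scalings, filters, gene ID sums, chromosome sets and call rules, and, added after seeing the data, interval centres, members with intervals near the FPKM, and members off chromosomes 3 and 6. The ratio, the fold call and the counting error were tested on simulated data. Its intervals were built around the simulated FPKM, unlike some of the deposited ones. Other steps were not simulated. Software was Python 3.11.15 with matplotlib 3.10.9, scipy 1.17.1, numpy 2.4.6 and pandas 2.3.3.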

Additional observations from a re-analysis of the deposited data

Results flagged for a closer look

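Signal was listed in rows that the member values do not use. A second gene ID carrying the RPL36A symbol was listed at 271 FPKM (NG), 212 FPKM (HG) and 259 FPKM (L5). RPS18 on alternate contigs summed to 1621 FPKM (NG), 1765 FPKM (HG) and 1307 FPKM (L5). Gene IDs named as processed copies of members summed to 4709 FPKM (NG), 4175 FPKM (HG) and 3822 FPKM (L5). How many of these fragments came from the member genes was not tested.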

How the results depend on the processing

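No paired analysis was possible because each group had 1 library, and leaving out a library leaves no comparison. Medians of the 77 members were negative in each comparison under each alternative. For HG over NG, -0.25 as reported, they were -0.16 with median scaling, -0.16 with upper quartile scaling, -0.12 with TPM and -0.68 with spike-in scaling. For L5 over HG, -0.11 as reported, the median was -0.52 with spike-in scaling. For L5 over NG, -0.37 as reported, they were -0.27, -0.30, -0.21 and -1.21 with the same 4 scalings, and -0.33 off chromosomes 3 and 6. Spike-in scaling, from 49 sequences, put the medians of all genes at -0.49, -0.35 and -0.83, and TPM put them at 0.01, 0.03 and 0.04. Each scaling multiplies all genes of a library by 1 factor, so members and all genes move nearly alike. These scalings therefore cannot check whether members stand below all genes.

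Members past the fold in HG over NG, 7 as reported, were 4 with TPM, 62 with spike-in scaling, 3 off chromosomes 1, 3, 6, 9 and 15, and 0 at a ratio of 1 in size. In L5 over HG, 5 as reported, they were 44 with spike-in scaling, 1 off chromosomes 1, 3, 6, 9 and 15, 1 off chromosomes 3 and 6, and 0 at a ratio of 1. In L5 over NG, 19 as reported, they were 8 with TPM, 75 with spike-in scaling, 8 off chromosomes 1, 3, 6, 9 and 15, 11 off chromosomes 3 and 6, and 0 at a ratio of 1. By intervals that did not overlap the counts were 69, 63 and 70. Fewer members were counted where chromosomes were left out, and shares of all genes without those chromosomes were not computed. TPM and spike-in scaling multiply all genes of a library by 1 factor, which shifts the ratios of a comparison against a fixed cut. A ratio of 1 is a stricter cut, and intervals are another rule. Why the scalings differ between libraries was not tested.

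Without mitochondrially encoded genes the members held 19.6%, 18.2% and 16.9% of summed FPKM in NG, HG and L5, and as a share of fragments 7.30%, 6.66% and 6.20%. Of 458 recomputed values of the 31 ratios past the fold, 457 kept their sign and RPL4 in L5 over NG turned to -0.32 with spike-in scaling; these 31 were chosen by size, which makes a turn of sign unlikely. Among all members, interval centres turned RPS24 in each comparison, RPS15 in HG over NG and L5 over NG, RPS7 in HG over NG, RPL32, RPLP2 and RPS3 in L5 over HG, and RPS2 in L5 over NG. RPL32, whose HG interval lay below its FPKM, had ratios from interval centres of -0.77 in HG over NG and 0.16 in L5 over HG, in place of -0.16 and -0.45. Counting errors of members were at most 0.05 on the log2 scale, which speaks to precision alone, and the part of unequal depth was not tested. The absence of replicate cultures limits every comparison.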
